A study of Mus musculus with 4 samples.

Results

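The integrated stress response (ISR) and the genes of amino acid supply and tRNA charging that it is known to switch on were examined in macrophages with and without a targeted G3bp1 gene. The gene group is a list of symbols, and all 37 of its 37 symbols were found among the 34745 genes of the deposited table. By role they were the translation factor subunit Eif2s1 with 3 of its kinases (4 genes), 9 regulators and stress effectors, 9 enzymes of amino acid and one-carbon synthesis, 3 amino acid transporter genes and 12 cytosolic tRNA synthetases.

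The samples were total RNA from cultured mouse macrophages, which the study's methods describe as derived from bone marrow. The controls, labelled WT, came from mice with a floxed G3bp1 gene (G3bp1 f/f), and those labelled KO came from G3bp1 f/f mice that also carried Lyz2-Cre (G3bp1 mac-/-). The Lyz2 promoter drives Cre in monocytes and granulocytes as well as in macrophages, so the deletion is not limited to macrophages. Each genotype had 2 libraries, numbered 1 and 2 in the labels and called WT1, WT2, KO1 and KO2 here. No treatment, age or sex was given in the labels, and nothing in them says whether the libraries of a genotype came from separate mice or whether a number marks a shared culture or day.

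The ISR is a shared brake on protein synthesis. Kinases that sense stress, among them PERK (Eif2ak3), GCN2 (Eif2ak4) and HRI (Eif2ak1), phosphorylate the alpha subunit of eIF2, encoded by Eif2s1. Most translation then slows, the mRNA of the transcription factor ATF4 is translated more, and ATF4 with C/EBP partners switches on genes for making, importing and charging amino acids onto tRNA. Phosphorylated eIF2 alpha also releases the untranslated mRNA from which stress granules are built, and G3BP1 is the scaffold on which those granules assemble. RNA levels report on the output of the pathway and not on phosphorylation or translation, which were not measured here.

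Promoter sequences are shown because several members varied together across the libraries in the counts described further on. ATF4 and a C/EBP partner are known to bind a composite element whose core reads TGATGNAA. This 8-letter core was searched for on both strands in RefSeq promoter windows of GRCm38.p6, each covering 250 bases before and 50 after an annotated start, with no other motif searched. At least 1 match was present in 1304 of all 32851 windows (3.97%) and in 1219 of the 27025 genes with a window (4.51%). Of the 37 members, 30 had a window, and 10 of these 30 (33.3%) held a match: Chac1, Trib3, Nupr1, Asns, Pycr1, Aars, Gars, Iars, Tars and Yars. By role, a match was found in 5 of 7 synthetases, 3 of 9 regulators and stress effectors, 2 of 8 synthesis enzymes, 0 of 2 transporter genes and 0 of 4 genes of the eIF2 alpha and kinase group. Cars, Cth, Hars, Lars, Nars, Slc7a5 and Wars had no window. A match to letters is a description and not evidence of binding, and the windows without one say only that these letters were not in them.

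The 250 bases before the start of Chac1 are printed first, because this gene differed most between the replicate numbers. They lie at chr2:119350992-119351241 on the plus strand of GRCm38, and the capitals mark the core, read on the other strand.
Chac1: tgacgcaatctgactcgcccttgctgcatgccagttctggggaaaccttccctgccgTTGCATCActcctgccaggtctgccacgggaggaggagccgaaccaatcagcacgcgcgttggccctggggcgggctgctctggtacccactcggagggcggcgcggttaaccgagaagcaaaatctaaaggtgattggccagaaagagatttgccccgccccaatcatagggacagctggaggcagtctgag

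The other matches are shown with 8 bases on each side, on the strand of the gene and with the core in capitals, so that the letter at the N can be compared between members.
Nupr1 (chr7:126625565-126625588, minus strand): gggccagaTTGCATCAgacagggc
Aars (chr8:111033722-111033745, plus strand): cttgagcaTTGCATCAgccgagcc
Iars (chr13:49682129-49682152, plus strand): tgtcagtaTTGCATCAcctccaga
Tars (chr15:11399658-11399681, minus strand): gagtcccgTTGCATCAgctggtta
Yars (chr4:129189898-129189921, plus strand): agctcagcTGATGCAAcccgacgg
Pycr1 (chr11:120643836-120643859, minus strand): cctgtgtaTGATGCAAtgcacaag
Asns (chr6:7693217-7693240, minus strand): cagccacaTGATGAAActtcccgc
Gars (chr6:55037963-55037986, plus strand): ctgcgctaTTTCATCAtgcaccgg
Trib3 (chr2:152344031-152344054, minus strand): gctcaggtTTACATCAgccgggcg
A second match of Aars lay at chr8:111033843-111033866: gggtcactTTTCATCAgagcgctc
The same 8 letters, or their reverse complement, were shared by Chac1, Nupr1, Iars, Tars, Yars, Pycr1 and the first match of Aars, whereas Asns, Gars, Trib3 and the second match of Aars had another letter at the N.

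The libraries held 16724241 to 19747909 counts, 12418 genes were abundant enough to be tested, and a gene at 3 counts in a library would have a level of 0.152 to 0.188 CPM (the count divided by the TMM-scaled total of its library, counting error only). G3bp1 (ENSMUSG00000018583, chromosome 11, 55469685 to 55504838, GRCm38) was examined as the check of the labels. It had 1691 counts in WT1, 2875 in WT2, 1307 in KO1 and 2296 in KO2, or 104, 180, 70.1 and 117 CPM. The KO libraries lay below the WT library of the same number, but KO2 lay above WT1 and the genotypes overlapped. The log2 fold change of KO against WT was -0.61 (SE 0.40, adjusted p = 0.904 by edgeR's quasi-likelihood test with Benjamini-Hochberg adjustment), so the RNA level did not separate the labels in this fit, and counts per gene cannot show whether the floxed exons were lost. WT and KO therefore stand for the labels throughout.

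Markers of other cells were examined because the samples are bulk RNA, in which fewer cells of a type and less RNA per cell cannot be told apart. The 12 macrophage markers (13 genes, as 1 symbol named 2), among them Csf1r, Adgre1 and Cd68, were all detected and summed to 25983 to 27874 CPM in WT and 22048 to 25673 CPM in KO. The 12 stromal genes, among them collagens and Pdgfra, were all detected and summed to 114 to 130 CPM in WT and 471 to 512 CPM in KO, with 10 of 12 higher in KO without overlap (20.0% of all genes). The neutrophil list (10 genes, Mpo and Elane at 0) summed to 26.2 to 29.0 CPM in WT and 8.53 to 11.98 CPM in KO. Mast cell and basophil genes (8, Mcpt8 at 0) went from 35.3 to 40.2 CPM in WT and from 21.5 to 25.1 CPM in KO, and B cell genes (8, none at 0 in all libraries) from 22.1 to 23.2 and from 11.4 to 12.01 CPM. The 8 T and NK cell genes stayed between 1.19 and 2.34 CPM in all libraries. Apart from the T and NK cell list, these sums separated the genotypes and not the replicate numbers. Most of the macrophage sum was Lyz2, and single macrophage markers did follow the number: 5 of the 13 genes lay higher and 2 lower in number 2 without overlap (25.2% and 23.2% of all genes), with Cd14 5.46-fold higher in WT and 5.05-fold in KO. The part of these markers in the member results was not tested.

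The first comparison was of KO against WT. Of the 37 members, 36 passed the filter and 0 were called at an adjusted p under 0.05 with an absolute log2 fold change over 1, where the same test called 0 of 12418 genes (0%). The DESeq2 Wald test and edgeR's exact test also called 0 members, and 181 and 174 of all genes. At an unadjusted p under 0.05 in the quasi-likelihood test, 1 member was higher in KO against a background of 4.64% of all genes, and 0 were lower in KO against 1.99%. The genotypes did not overlap for 2 members that were higher in KO (Stc2 and Cth), against 20.0% of all genes, and for 0 members that were lower in KO, against 16.9%. The fitted differences lay above 0 for 30 of 36 members, with a median log2 fold change of 0.26 and a range from -0.35 (Eif2s1) to 1.45 (Cth), beside a median of 0.041 over all genes tested. This median changed with the library left out: it was 0.80 without WT2, 0.57 without KO1, -0.071 without WT1 and -0.17 without KO2. Each of these fits leaves 1 replicate number in 1 genotype only, so a difference between the numbers enters it. With all libraries kept and the replicate number also in the fit, the median was 0.28. The 95% confidence interval of 35 of the 36 members included 0, that of 29 reached past a log2 difference of 1 on at least 1 side, and that of 8 did so on both sides. A difference of that size was therefore not excluded for most members in this fit, which had genotype as its only term.

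**Figure D1:**
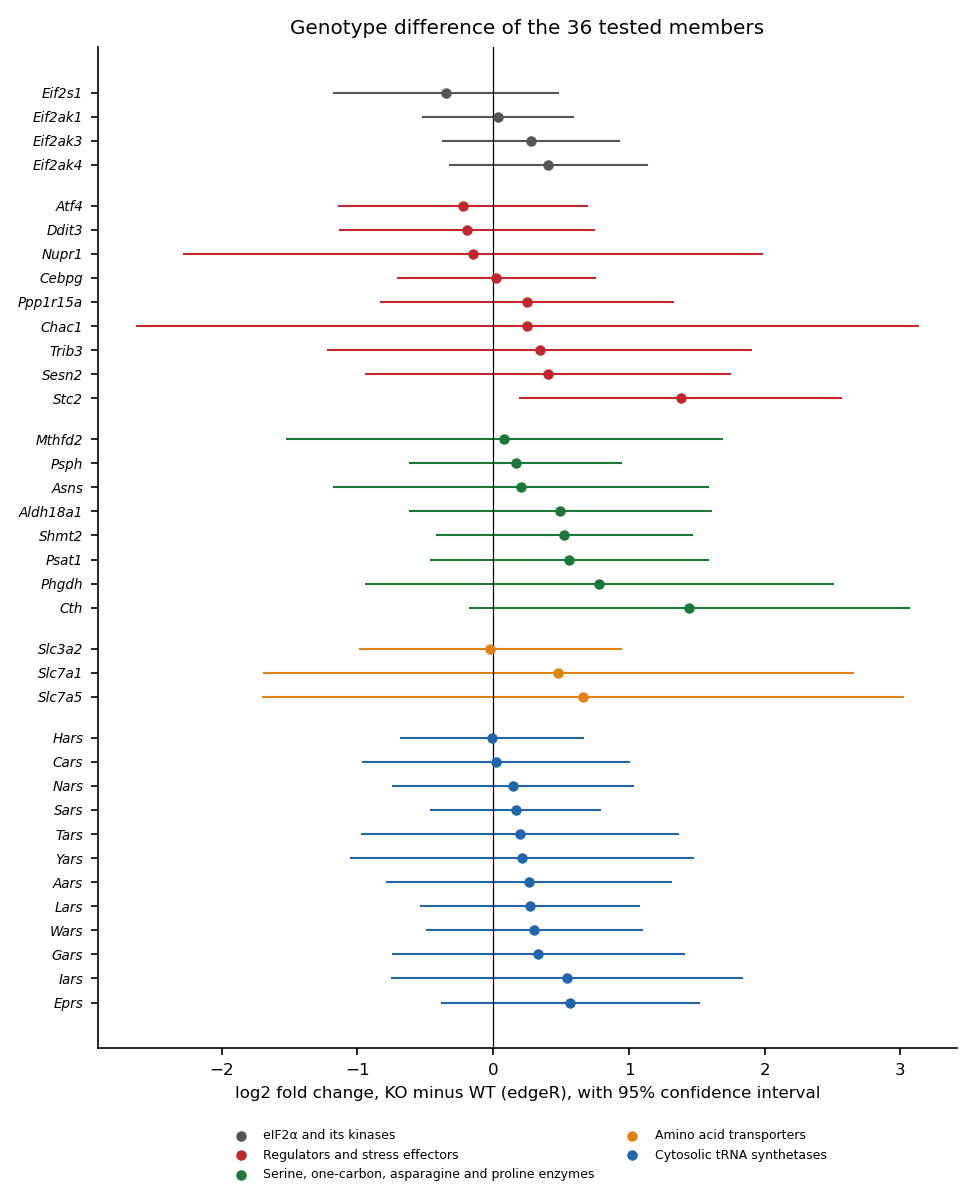
Log2 fold change of KO against WT (x axis, edgeR) for each of the 36 tested members (y axis), with its 95% confidence interval and coloured by role. Points lie from -0.35 for Eif2s1 to 1.45 for Cth, and the interval of Stc2 (0.20 to 2.56) is the one that does not include 0.

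The second comparison was between the replicate numbers, and here most members stood on the same side. Both number 2 libraries lay above both number 1 libraries for 30 of 36 members, where 25.2% of all genes tested did so, and below both for 4 members (Eif2ak1, Eif2ak3, Eif2ak4 and Cebpg) against 23.2%. The median log2 ratio of number 2 to number 1 was 0.85 in WT and 0.67 in KO, beside -0.0030 and -0.0042 over all genes. Each number holds 1 library per genotype, so this is a comparison of single libraries made once in each genotype, with no test. What the numbers stand for is not given in the sources used here.

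Beside this split, the genotypes were compared within each number. KO lay above WT in both numbers for 26 of 36 members against 36.0% of all genes, and below WT in both for 4 (Eif2s1, Atf4, Nupr1 and Hars) against 29.0%. The median log2 ratio of KO to WT was 0.38 in number 1 and 0.19 in number 2, beside 0.11 and -0.0013 over all genes. As a result the 4 libraries stood in 1 order, WT1 lowest, then KO1, WT2 and KO2, for 20 of 36 members, and 7.80% of all genes had that order.

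**Figure D2:**
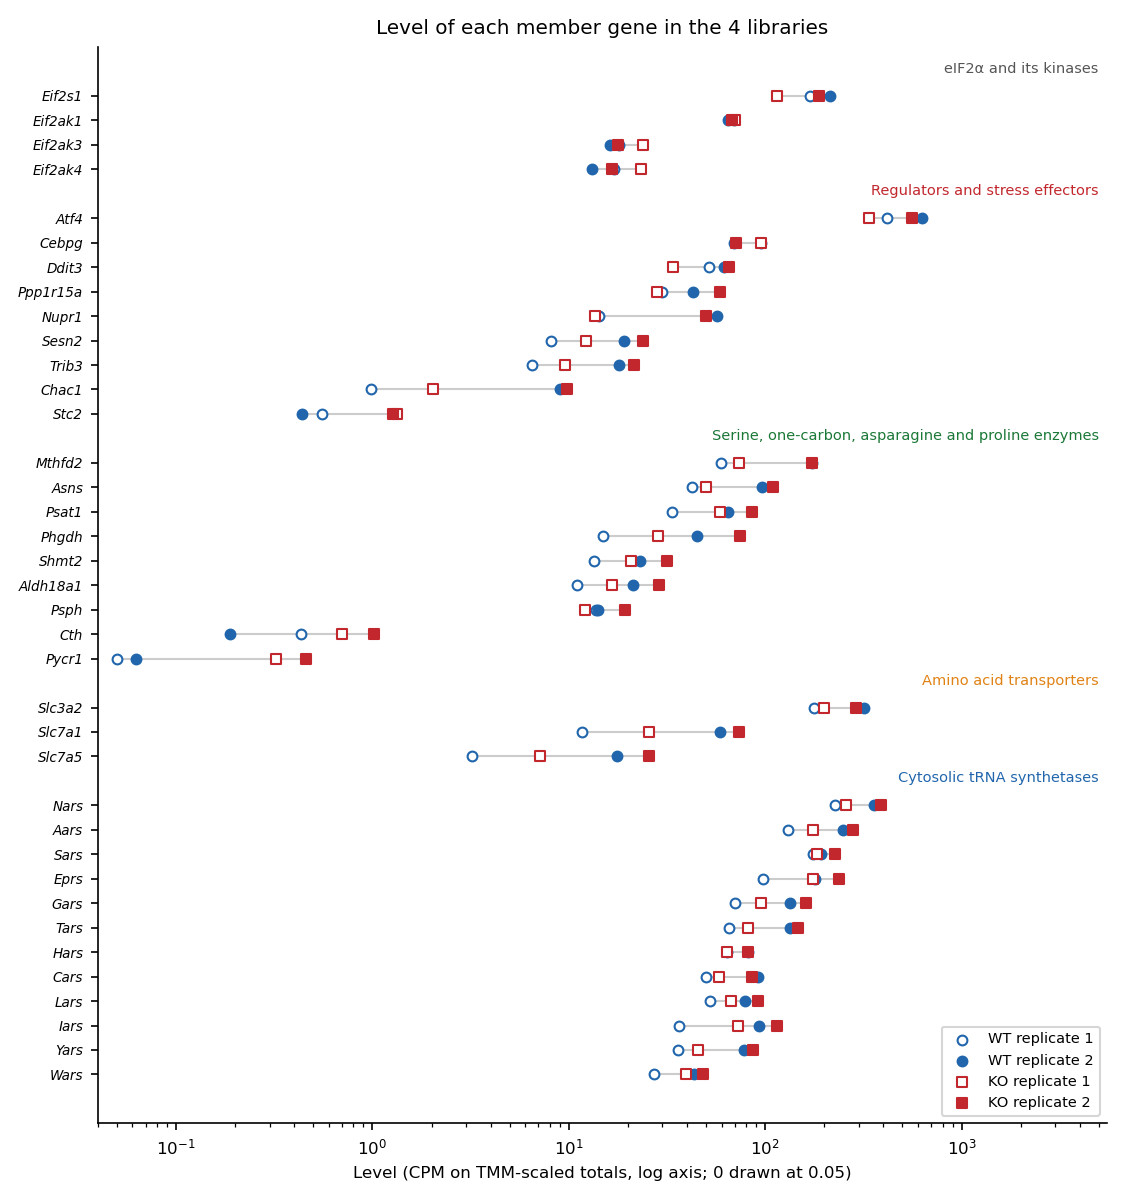
Level of each of the 37 members (y axis, grouped by role) in the 4 libraries as CPM on TMM-scaled totals (log x axis, a level of 0 drawn at 0.05); circles are WT, squares are KO, open symbols are number 1 and filled symbols number 2. For 30 of the 36 tested members the filled symbols lie to the right of both open ones of the same gene, whereas for the 3 kinase genes they lie to the left.

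**Figure D3:**
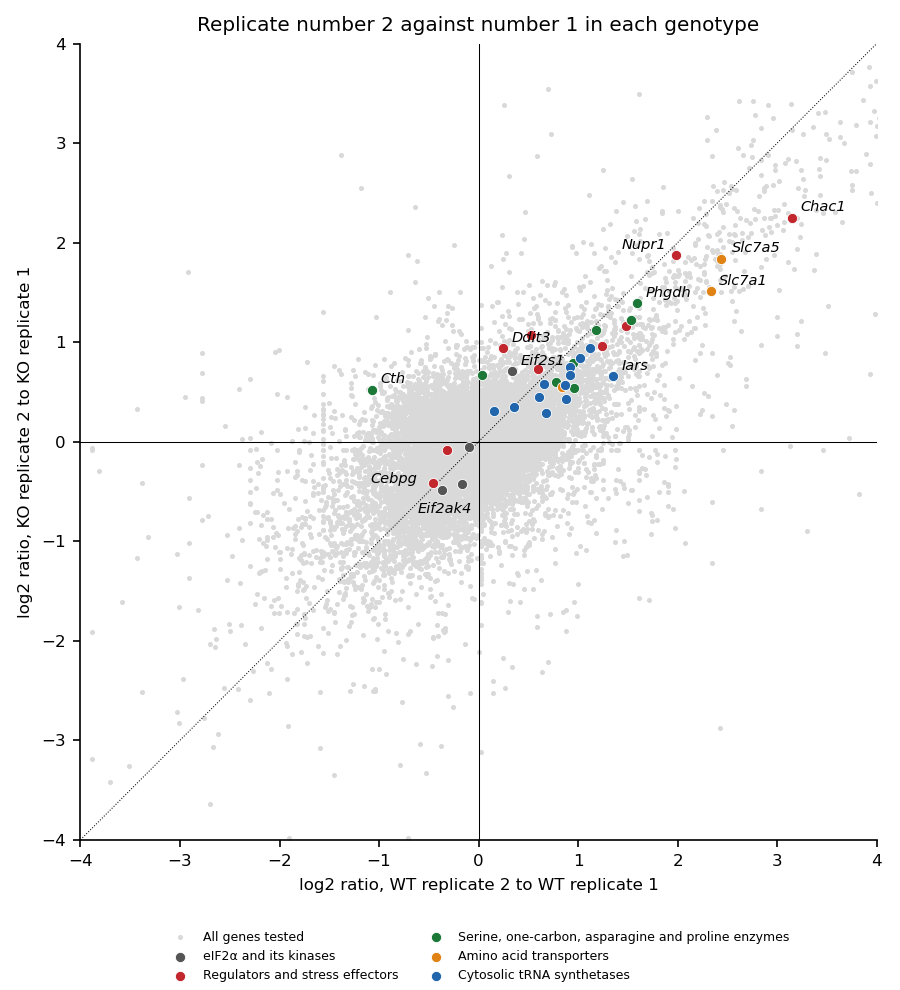
Log2 ratio of number 2 to number 1 in WT (x axis) and in KO (y axis) for all genes tested (grey) and the 36 tested members by role (colours); some grey points fall outside the axes and the dotted line marks equal ratios. Most members lie in the upper right part, with Chac1 farthest out, and the 3 kinase genes lie in the lower left.

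Levels between genes were compared per length, with the deposited FPKM averaged over the WT libraries. Atf4 was the most abundant member at 288 FPKM, followed by the asparaginyl-tRNA synthetase gene Nars at 105, Eif2s1 at 53.5, Tars at 35.7 and Slc3a2 at 35.4 FPKM. The lowest were Cth at 0.083, Stc2 at 0.050 and Pycr1 at 0.0063 FPKM. The members thus ranged from a transcription factor mRNA to enzymes near the limit of detection.

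The 3 kinase genes among the members did not share the higher level of most members in number 2. Eif2ak1, which encodes the heme-regulated kinase, stood at 69.4 CPM in WT1, 65.0 in WT2, 70.4 in KO1 and 67.6 in KO2, and its locus overlaps Aimp2 on the other strand. Eif2ak3, which encodes PERK, the sensor of the endoplasmic reticulum, stood at 18.1, 16.2, 23.9 and 17.8 CPM in the same order. Eif2ak4, which encodes GCN2, the sensor of uncharged tRNA, stood at 16.9, 13.2, 23.3 and 16.7 CPM. In all 3 kinase genes the number 2 libraries lay below the number 1 libraries, opposite to most members (23.2% of all genes). KO lay above WT within both numbers (36.0% of all genes). For Eif2ak1 these differences were small. Its log2 ratios of number 2 to number 1 were -0.094 in WT and -0.058 in KO, and those of KO to WT 0.019 in number 1 and 0.055 in number 2. Eif2ak2, which encodes PKR, the kinase that senses double-stranded RNA, is no member, was named after its values were seen and followed the split, at 27.1, 56.6, 36.2 and 43.7 CPM. Log2 fold changes of KO against WT were 0.28 (SE 0.26, adjusted p = 0.953) for Eif2ak3 and 0.41 (SE 0.29, adjusted p = 0.923) for Eif2ak4 in the edgeR fit. Eif2s1, which encodes the phosphorylated subunit itself, stood at 170 CPM in WT1, 214 in WT2, 115 in KO1 and 187 in KO2. It was the member with the lowest fitted difference (log2 fold change -0.35, SE 0.33, adjusted p = 0.957), lower in KO within both numbers and higher in number 2 within both genotypes.

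Among the regulators, Atf4 mRNA was higher in number 2 than in number 1 and did not separate the genotypes. Atf4 (ENSMUSG00000042406, chromosome 15, 80255184 to 80257540) had 6787 counts in WT1, 10077 in WT2, 6291 in KO1 and 11059 in KO2, or 418, 632, 337 and 561 CPM. KO lay below WT in both numbers, with a log2 fold change of -0.22 (95% interval -1.14 to 0.69, adjusted p = 0.971, edgeR). Number 2 was 1.51-fold above number 1 in WT and 1.66-fold in KO. Since ATF4 is controlled largely by translation, its mRNA level is not a measure of the protein.

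The transcription factor and feedback genes downstream of Atf4 differed in how far they followed the replicate number. Ddit3, which encodes CHOP and overlaps Mars on the other strand, had 842 and 982 counts in WT1 and WT2 and 633 and 1286 in KO1 and KO2. Its genotypes overlapped (log2 fold change -0.19, SE 0.37, adjusted p = 0.975, edgeR), with KO1 the lowest and KO2 the highest library. Ppp1r15a, which encodes GADD34, the phosphatase subunit that reverses eIF2 alpha phosphorylation, had 485, 687, 522 and 1158 counts in WT1, WT2, KO1 and KO2. KO2 stood above the other libraries, and the log2 fold change was 0.25 (SE 0.42, adjusted p = 0.971, edgeR). Trib3, a pseudokinase that restrains ATF4 and CHOP, had 105, 288, 179 and 423 counts. Number 2 was 2.78-fold above number 1 in WT and 2.23-fold in KO, whereas the genotype difference was 0.34 on the log2 scale (SE 0.61, adjusted p = 0.973, edgeR). Cebpg, a C/EBP partner of ATF4, was the regulator that went the other way, at 94.8 and 95.1 CPM in WT1 and KO1 against 69.0 and 71.3 CPM in WT2 and KO2.

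The stress effectors included the member with the largest difference between numbers. Chac1 (ENSMUSG00000027313, chromosome 2, 119351229 to 119354381), which encodes a glutathione-degrading enzyme and carries the core printed first, had 16 counts in WT1, 143 in WT2, 38 in KO1 and 193 in KO2. Number 2 was 8.85-fold above number 1 in WT and 4.76-fold in KO, and both KO libraries lay above the WT library of the same number. The fitted difference between genotypes was 0.25 on the log2 scale with a 95% interval from -2.62 to 3.13 (adjusted p = 0.990, edgeR). Nupr1, a small stress-induced chromatin protein, had 232, 901, 255 and 988 counts in WT1, WT2, KO1 and KO2. In each genotype number 2 was nearly the same multiple of number 1 (3.95-fold in WT and 3.66-fold in KO), and the genotypes lay close together (log2 fold change -0.15, SE 0.84, adjusted p = 0.990, edgeR). Sesn2, which encodes a leucine sensor that restrains mTORC1, stood at 8.07, 19.1, 12.2 and 23.8 CPM, again with number 2 above number 1. Stc2, a secreted glycoprotein induced by stress, was the exception. Its counts were 9 in WT1, 7 in WT2 and 25 in each KO library. The genotypes did not overlap and the numbers did, with a log2 fold change of 1.38 (SE 0.47, unadjusted p = 0.030, adjusted p = 0.640, edgeR). The ratio of its summed normalised counts was 2.62 (exact 95% interval 1.47 to 4.93, counting error only), so the values are small but above the floor.

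Phgdh, Psat1, Shmt2 and Mthfd2 of the serine and one-carbon enzymes stood higher in number 2 than in number 1 within each genotype, and the first 3 also higher in KO than in WT within each number. Phgdh, the first enzyme of serine synthesis, had 242 counts in WT1, 719 in WT2, 531 in KO1 and 1471 in KO2. Psat1, the second enzyme, had 542, 1036, 1100 and 1694 counts, and Psph, the last, which overlaps Cct6a on the other strand, had 224, 225, 225 and 379 counts. In CPM, Psph stood at 13.8, 14.1, 12.1 and 19.2, nearly level in WT and highest in KO2. Shmt2, which passes the serine carbon to folate in mitochondria, had 217, 367, 387 and 622 counts in WT1, WT2, KO1 and KO2. Mthfd2, the next folate enzyme, had 970, 2750, 1372 and 3395 counts, which in CPM made WT2 and KO2 equal at 172. Log2 fold changes of KO against WT in the edgeR fit were 0.78 for Phgdh (SE 0.68, adjusted p = 0.950), 0.56 for Psat1 (SE 0.40, adjusted p = 0.927), 0.52 for Shmt2 (SE 0.37, adjusted p = 0.924) and 0.08 for Mthfd2 (SE 0.63, adjusted p = 0.993). Mthfd2 was 2.89-fold higher in number 2 in WT and 2.34-fold in KO, and Phgdh 3.02-fold and 2.62-fold.

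Asns and Aldh18a1 stood in the order WT1, KO1, WT2, KO2 from low to high. Asns (ENSMUSG00000029752, chromosome 6, 7675169 to 7693254), asparagine synthetase and a classical ATF4 target, had 690 counts in WT1, 1539 in WT2, 937 in KO1 and 2160 in KO2. Number 2 was 2.27-fold above number 1 in WT and 2.18-fold in KO, whereas KO against WT gave 0.20 on the log2 scale (SE 0.54, adjusted p = 0.982, edgeR). Aldh18a1, which starts proline synthesis from glutamate, had 178, 339, 309 and 567 counts, with a log2 fold change of 0.49 (SE 0.44, adjusted p = 0.952, edgeR).

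A pair of low genes of amino acid synthesis separated the genotypes by few counts. Pycr1, the last step of proline synthesis, had 0 counts in WT1, 1 in WT2, 6 in KO1 and 9 in KO2 and did not pass the filter. The ratio of its normalised counts was 12.6 with an exact 95% interval from 1.94 to 530, counting error only. Cth, cystathionine gamma-lyase, which makes cysteine, had counts of 7 in WT1, 3 in WT2, 13 in KO1 and 20 in KO2, a ratio of 2.77 (exact 95% interval 1.33 to 6.30, counting error only). Its fitted log2 fold change of 1.45 (SE 0.64, adjusted p = 0.818, edgeR) was the largest among the members. With Stc2, these were the 3 least abundant members per length, and each was higher in both KO libraries. The stromal list and the neutrophil, mast cell and basophil, and B cell lists separated the same libraries, and their part was not tested.

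The transporter genes had the highest median log2 ratio of number 2 to number 1 of any role, 2.34 in WT and 1.51 in KO. Slc7a5, the LAT1 subunit that imports leucine and other large neutral amino acids, had 52 counts in WT1, 279 in WT2, 133 in KO1 and 504 in KO2. Slc7a1, the cationic amino acid transporter for arginine and lysine, had 190, 944, 478 and 1444 counts. Slc3a2, the heavy chain that pairs with Slc7a5, was far more abundant and moved less, at 178, 318, 199 and 291 CPM. In WT, number 2 was 5.42-fold above number 1 for Slc7a5, 5.05-fold for Slc7a1 and 1.79-fold for Slc3a2. The corresponding folds in KO were 3.58, 2.86 and 1.46. Log2 fold changes of KO against WT were 0.66 for Slc7a5 (SE 0.93, adjusted p = 0.965) and 0.48 for Slc7a1 (SE 0.85, adjusted p = 0.973) in the edgeR fit, with KO above WT in both numbers.

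All 12 cytosolic tRNA synthetases stood higher in both number 2 libraries than in both number 1 libraries, against 25.2% of all genes tested. Their summed level was 1031 CPM in WT1, 1713 in WT2, 1318 in KO1 and 1947 in KO2. The order WT1, KO1, WT2, KO2 held for 10 of the 12 and for this sum. The log2 ratio of number 2 to number 1 ranged from 0.15 (Sars) to 1.35 (Iars) in WT, with a median of 0.88, and from 0.29 (Wars) to 0.94 (Yars) in KO, with a median of 0.58. These enzymes load each amino acid onto its tRNA, and the group rule took those of alanine, cysteine, glutamate with proline, glycine, histidine, isoleucine, leucine, asparagine, serine, threonine, tryptophan and tyrosine.

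Between genotypes the synthetases gave log2 fold changes from -0.0064 (Hars) to 0.57 (Eprs), with a median of 0.24, and 0 of the 12 were called (0% of all genes), higher in KO without overlap (20.0%) or lower without overlap (16.9%). Wars, the tryptophanyl-tRNA synthetase, which is also known to respond to interferon, had 442 counts in WT1, 696 in WT2, 734 in KO1 and 946 in KO2 (log2 fold change 0.30, SE 0.31, adjusted p = 0.959, edgeR). Eprs, the fused glutamyl- and prolyl-tRNA synthetase, had 1587, 2867, 3272 and 4653 counts, and its fold change of 0.57 (SE 0.37, adjusted p = 0.904, edgeR) was the largest of the family in this fit. With the replicate number also in the fit, Iars lay above Eprs (0.65 against 0.62). Iars, which loads isoleucine and holds a core just after its start, had 591, 1484, 1362 and 2274 counts (log2 fold change 0.54, SE 0.51, adjusted p = 0.957, edgeR). In Eprs and Iars, KO1 stood well above WT1 (log2 ratios of 0.84 and 1.00), and the distance between KO2 and WT2 was smaller (0.39 and 0.31).

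The other synthetases kept the split between numbers at different sizes. Aars, with 2 cores in its window, stood at 131 CPM in WT1, 248 in WT2, 175 in KO1 and 279 in KO2. Tars stood at 65.6, 133, 81.8 and 146 CPM, and Gars at 70.5, 133, 95.7 and 161 CPM, in the same order. Yars, whose locus overlaps C77080 on the other strand, stood at 35.9, 78.1, 45.3 and 86.8 CPM. In these 4 genes WT1 was lowest and KO2 highest. The same held for Eprs and Sars, whose windows had no core, and for Nars and Lars, which had no window. Nars, the most abundant synthetase, stood at 226, 358, 259 and 387 CPM, Lars at 52.1, 79.3, 66.8 and 91.4, and Cars at 50.1, 91.7, 57.9 and 86.1. Sars was the flattest in WT, at 174 and 193 CPM in WT1 and WT2, and reached 184 and 228 in KO1 and KO2. Hars, which overlaps Hars2 on the other strand, gave almost equal genotypes, at 63.9 and 63.8 CPM in number 1 and 81.9 and 81.4 CPM in number 2.

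**Figure D4:**
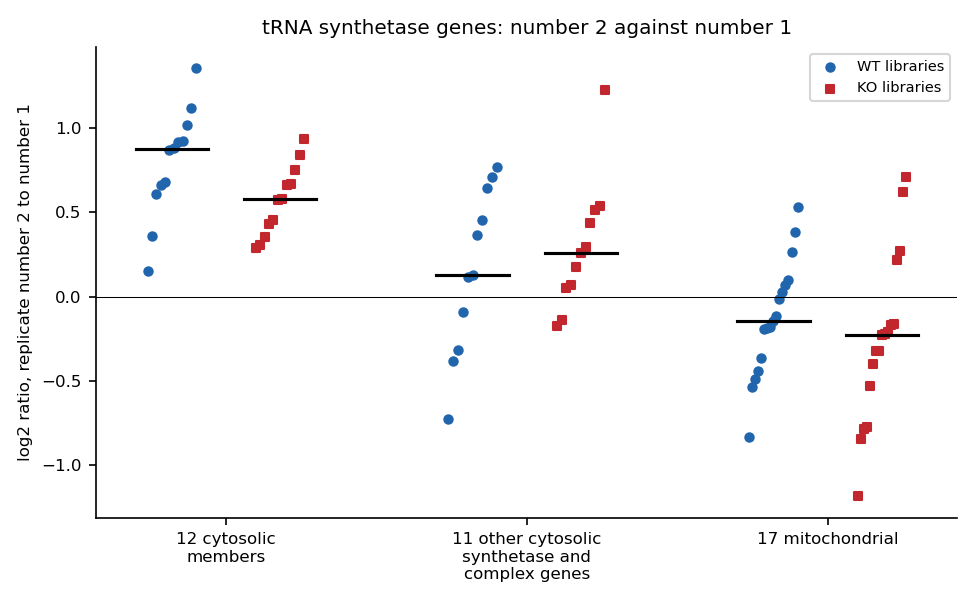
Log2 ratio of number 2 to number 1 (y axis) for the 12 member synthetases, the 11 other cytosolic synthetase and complex genes and the 17 mitochondrial synthetases (x axis); circles are the WT libraries, squares the KO libraries, points are genes and black lines are medians. All points of the 12 members lie above 0, whereas those of the other groups lie on both sides of 0.

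The remaining synthetase genes were set beside the members to see where the members differ. The 11 other cytosolic synthetase and multisynthetase complex genes had number 2 above number 1 without overlap for 6 and below for 2 (25.2% and 23.2% of all genes), with median log2 ratios of 0.13 in WT and 0.26 in KO. The 17 mitochondrial synthetases, which are encoded by separate genes, had number 2 above without overlap for 2 and below for 8, against the same shares of all genes, with medians of -0.15 and -0.23. KO lay above WT without overlap for 6 of the 17 mitochondrial genes and below for 1, and above for 1 and below for 1 of the 11 cytosolic genes, against 20.0% and 16.9% of all genes. None of these genes with a promoter window (8 cytosolic, 14 mitochondrial) held the core. The members were listed as ISR genes with earlier results of these data known, so this count is a description. A link between the core and the split was not tested. Vars, Aimp1 and Mars had the smallest unadjusted p of the cytosolic group, with log2 fold changes of KO against WT of 0.43, -0.48 and 0.33 and adjusted p of 0.904, 0.904 and 0.957 in the edgeR fit. Of the mitochondrial group, Lars2 had counts of 127 in WT1, 115 in WT2, 315 in KO1 and 266 in KO2 (log2 fold change 1.01, SE 0.27, adjusted p = 0.413, edgeR). Aars2 and Mars2 followed with 0.65 (adjusted p = 0.893) and 0.47 (adjusted p = 0.904) in the same edgeR fit.

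The other genes of the pathway were read from 4 further lists, including the synthetase lists above, with 69 genes in the table and 67 tested. Of these 0 were called, 3 were higher in KO at an unadjusted p under 0.05 (Aldh1l2, Vldlr and Lars2; 4.64% of all genes) and 0 were lower (1.99%). Number 2 lay above number 1 without overlap for 26 of the 67 (25.2% of all genes) and below for 14 (23.2%). KO lay above WT without overlap for 19 (20.0%) and below for 2 (16.9%). The 12 tested genes of eIF2, eIF2B and their regulators were close to level between genotypes, with log2 fold changes from -0.25 to 0.33. Those with the smallest p were Gcn1l1 (0.33, adjusted p = 0.933), whose product activates GCN2, Impact (0.18, adjusted p = 0.965), which restrains GCN2, and the eIF2B subunit Eif2b2 (-0.15, adjusted p = 0.968), all by edgeR.

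The 28 other tested ISR targets had number 2 above number 1 without overlap for 13 and below for 4, against 25.2% and 23.2% of all genes. KO lay above WT without overlap for 10 of them and below without overlap for 0, against 20.0% and 16.9%. Of the 24 with a promoter window, 10 (41.7%) held the core. Aldh1l2, a mitochondrial folate enzyme, had counts of 11 in WT1, 13 in WT2, 69 in KO1 and 74 in KO2 (log2 fold change 2.31, SE 0.38, adjusted p = 0.250, edgeR). Vldlr, a lipoprotein receptor, had 6 counts in each WT library and 19 and 36 in KO (1.91, SE 0.55, adjusted p = 0.493, edgeR). Atf5, a transcription factor related to ATF4, had counts of 250 in WT1, 395 in WT2, 584 in KO1 and 679 in KO2 (0.71, SE 0.30, adjusted p = 0.790, edgeR). In these 3 genes the genotypes did not overlap. Aldh1l2 was called by the DESeq2 Wald test and by edgeR's exact test. Slc7a11, the cystine importer, chosen after its values were seen, had the widest split between numbers on this list, with 139 and 2072 counts in WT1 and WT2 and 218 and 3139 in KO1 and KO2.

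**Figure D5:**
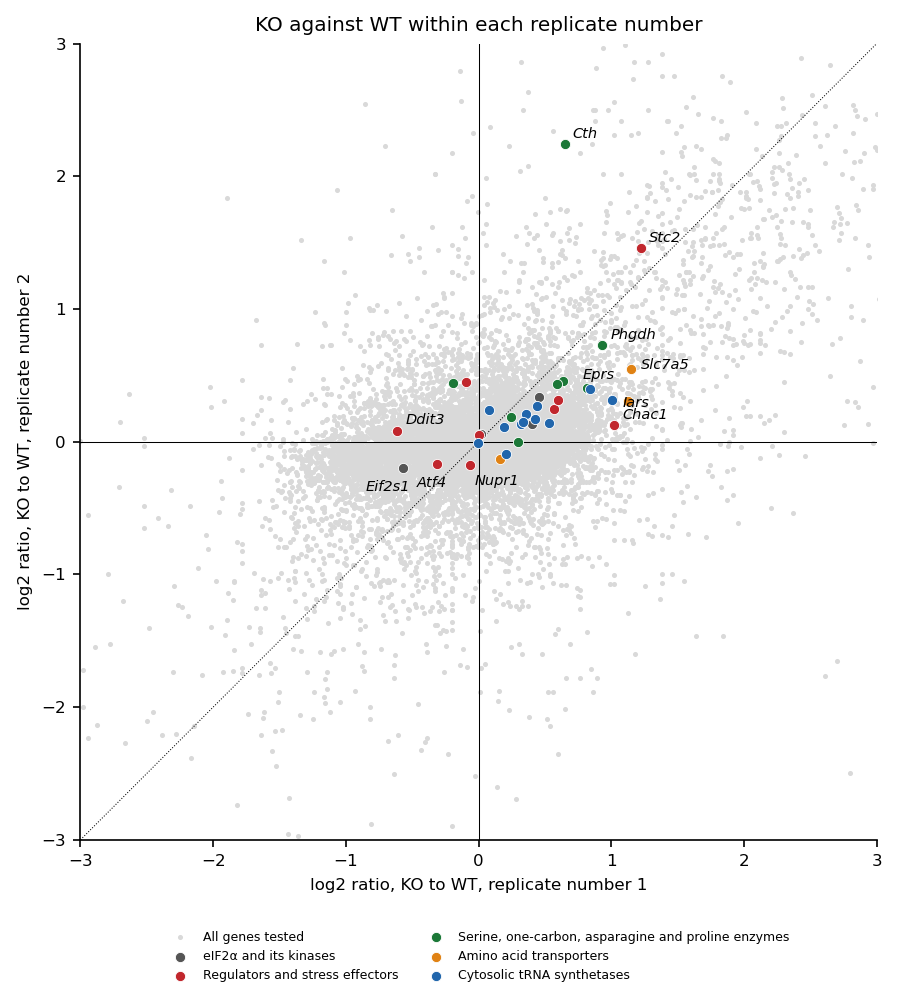
Log2 ratio of KO to WT in number 1 (x axis) and in number 2 (y axis) for all genes tested (grey) and the 36 tested members by role (colours); some grey points fall outside the axes and the dotted line marks equal ratios. Members lie mostly right of 0 with a smaller ratio in number 2, Stc2 and Cth lie farthest up, and Eif2s1, Atf4, Nupr1 and, by a small margin, Hars lie below 0 in both numbers.

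Other programmes were set beside the split between the numbers. The interferon list (13 genes, 11 tested) summed to 158 CPM in WT1, 807 in WT2, 129 in KO1 and 413 in KO2, with median log2 ratios of number 2 to number 1 of 2.64 in WT and 1.62 in KO. Its median log2 fold change of KO against WT was -1.44, opposite in sign to that of the members. The proliferation list (12 genes) had median ratios of number 2 to number 1 of -0.33 and -0.23 and a median log2 fold change of 0.96 for KO against WT, with 10 of 12 genes higher and 1 lower in KO without overlap, against 20.0% and 16.9% of all genes. The part of either programme in the member values was not tested. Mitochondrial transcripts took 2.67% of counts in WT1, 2.40% in WT2, 2.65% in KO1 and 2.56% in KO2, so both number 1 libraries lay above both number 2 libraries in this share. Its part in the split was not tested.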

How the data were processed

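RNA was sequenced from 4 libraries of mouse macrophages. The authors filtered reads with Seqtk, aligned them with HISAT2 (2.0.4) and counted them per gene with StringTie (1.3.3b), and deposited raw counts with an FPKM value beside each. The authors' FPKM were scaled by library total and length: over 10564 genes the implied length differed between libraries by at most 0.00398%. The submitters' processing notes list mm39, but 27699 of 34267 gene identifiers found in GENCODE M21 had the same chromosome, start and end on GRCm38, and coordinates are therefore those of GRCm38. Whether counting used strand is not given in the sources used here, so overlapping genes can share counts. No 2 libraries were copies (chi-square per degree of freedom 23.1 to 126).

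Counts were analysed with edgeR 4.0.16 in R 4.3.3: filterByExpr (minimum count 10, minimum total 15), TMM, genotype as the only term, the two-sided quasi-likelihood test, and Benjamini-Hochberg adjustment over 12418 genes. A call needed an adjusted p under 0.05 with a log2 fold change beyond 1 in size. P-values measure the spread between these libraries, which may be technical. Log2 ratios within a number or genotype, and the folds made from them, had 0.5 counts added. Alternatives were DESeq2 1.42.0 (size factors and Wald test), edgeR's exact test, no filter, a replicate block, a length correction (loess, span 0.5), no minimum fold change and leaving out each library. The code was tested on simulated counts that held no difference between replicate numbers. That run checked the code and not how the test behaves with such a difference.

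Members and lists were chosen with earlier results of these data known. Named always were G3bp1, Atf4, Ddit3, Trib3, Asns, Chac1, Ppp1r15a, Nupr1 and Wars. Added were members with non-overlapping genotypes, the 8 with the largest difference between numbers, and up to 3 genes of each other list by smallest p. Eprs, Iars, Psat1, Shmt2, Aldh18a1, Eif2ak3, Eif2ak4 and Eif2s1 were added after their values were seen. Members outside these rules are given by level. The symbol Itgam named 2 genes, and both were summed with the macrophage markers. Promoter windows were matched by symbol. A marker list for 1 further cell type is not reported here.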

Additional observations from a re-analysis of the deposited data

How the results depend on the processing

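No member was called in any setting, and the median log2 fold change of the members was 0.23 to 0.28 under the settings that kept all libraries. Leaving out 1 library moved it from -0.17 (without KO2) to 0.80 (without WT2), with -0.071 without WT1 and 0.57 without KO1. Single log2 fold changes also turned with the library left out. From without KO2 to without WT2 they went from -0.48 to 0.88 for Asns, -1.29 to 2.55 for Chac1, -0.67 to 1.01 for Mthfd2, -0.082 to 1.76 for Phgdh, -0.48 to 2.04 for Slc7a1, -0.54 to 2.32 for Slc7a5, -0.36 to 1.23 for Trib3 and -1.38 to 1.12 for Nupr1. From without KO2 to without KO1 they went from -0.64 to 0.099 for Atf4, -0.75 to 0.21 for Ddit3 and -0.39 to 0.69 for Ppp1r15a, and Impact went from -0.0053 without WT2 to 0.35 without WT1. Without WT1, Asns (-0.27), Chac1 (-0.60), Mthfd2 (-0.49), Slc7a1 (-0.26), Slc7a5 (-0.096) and Trib3 (-0.22) were also below 0, and Nupr1 was at 0.50 without KO1 and Atf4 at 0.070 without WT2. Others kept their sign but moved in size. From without WT1 to without WT2, Wars went from 0.0019 to 0.65, Iars from 0.018 to 1.34 and Eprs from 0.20 to 1.04. Aldh18a1 went from 0.034 without KO2 to 1.01 without WT2, and G3bp1 from -1.03 without KO2 to -0.19 without WT2. Fewer samples entered each of these fits, and 1 replicate number was left in 1 genotype only. Differences between the numbers therefore entered these fold changes.

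With a replicate block the median was 0.28 and 0 members were called, while 664 of all genes were; 10 members had an unadjusted p under 0.05 against 1 without the block, and 3 members (Slc7a1, Phgdh and Slc7a5) had an adjusted p under 0.05 with an absolute log2 fold change under 1. With a length correction as well, 606 genes were called, 15 members had an unadjusted p under 0.05, and 4 members (Iars, Shmt2, Phgdh and Slc7a5) passed the adjusted p alone. Deviations of libraries with the same number correlated at 0.71, but there are 2 pairs and the labels do not say that a number marks a shared source, so the block is not used for any call. For G3bp1 the log2 fold change was -0.60 (adjusted p = 0.0853, edgeR) with the block and -0.70 (adjusted p = 0.00260, edgeR) with the length correction as well, and its adjusted p lay between 0.00260 and 1 over all settings. Beyond the members, Aldh1l2 (2.31), Vldlr (1.89) and Lars2 (1.01) passed both thresholds with the block, and Aldh1l2 also by the DESeq2 Wald test (2.28) and edgeR's exact test (2.31). The Wald test called 181 genes and the exact test 174. DESeq2 size factors took the median of all genes from 0.041 to 0.0026, and 27 in place of 30 members then lay above 0. The common biological coefficient of variation was 0.343. Values under about 30 counts, such as those of Stc2, Cth and Pycr1, are limited by counting error.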
